A study of Homo sapiens with 8 samples.

Results

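The genes described here are 10 immediate early genes, FOS, FOSB, JUN, JUNB, EGR1, EGR2, EGR3, IER2, ATF3 and DUSP1, which were picked by name as a family and read wherever the array had a probe group assigned to that symbol alone. The family was chosen with earlier results of these data known. Its standing among all genes is therefore a description and no independent test. Of the 10 genes, 9 had such a probe group, out of 18417 genes measured in all, and the RNA level of EGR2 was not analysed here. RNA came from NCCIT cells, a human embryonic carcinoma line, transfected with small interfering RNA pools against TET2 (siTET2), TET3 (siTET3) or TET1 (siTET1), or with a non-targeting control siRNA (siNTC). The TET enzymes oxidize 5-methylcytosine in DNA to 5-hydroxymethylcytosine. There were 8 arrays, 2 for each of the 4 groups. The labels do not say whether the arrays of a group came from separate cultures, and p-values therefore reflect the scatter of these arrays alone, which may be technical. All groups were undifferentiated cells of the same line that had been transfected, the depletions were transient and partial, and each rested on 1 siRNA pool. Values are log2 intensities, on which a difference of 1 is a 2-fold change.

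Immediate early genes are transcribed within minutes of a growth factor, stress or serum signal, without new protein synthesis, and their RNAs are short-lived. The signal runs through MAP kinases to factors that wait at the promoters, chiefly serum response factor (SRF) with its ternary complex partners, and CREB. FOS, FOSB, JUN and JUNB encode leucine zipper proteins that pair to form the transcription factor AP-1, ATF3 encodes a related zipper protein induced by stress, EGR1, EGR2 and EGR3 encode zinc finger transcription factors, IER2 encodes a nuclear regulator, and DUSP1 encodes a phosphatase that switches MAP kinases off.

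The 10 genes lie on 6 chromosomes, 3 of them (FOSB, JUNB and IER2) on chromosome 19. They span a median of 4163 bases, between 1830 bases for JUNB and 55371 bases for ATF3, against a median of 24097.5 bases over 20052 protein-coding genes, and 9 of the 10 are shorter than that median. The stretch upstream of the start is shown for the 5 genes on which the comparison of siTET2 with siNTC turns, as 110 bases that run from 150 to 41 bases before the transcript start in RefSeq on GRCh38.p14. FOS is at chr14:75278678-75278787 (plus strand), FOSB at chr19:45467846-45467955 (plus strand), JUN at chr1:58784088-58784197 (minus strand), EGR1 at chr5:138465329-138465438 (plus strand) and DUSP1 at chr5:172771236-172771345 (minus strand). Capitals mark the SRF-binding CArG box and the CREB half-site TGACG, read on either strand (CGTCA on the other).
FOS: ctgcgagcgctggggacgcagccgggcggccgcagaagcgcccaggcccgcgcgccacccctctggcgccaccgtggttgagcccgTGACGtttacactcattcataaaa
FOSB: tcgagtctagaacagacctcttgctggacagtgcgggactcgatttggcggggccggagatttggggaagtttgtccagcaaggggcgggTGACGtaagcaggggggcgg
JUN: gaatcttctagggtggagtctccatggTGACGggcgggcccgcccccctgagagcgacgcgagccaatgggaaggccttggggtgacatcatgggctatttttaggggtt
EGR1: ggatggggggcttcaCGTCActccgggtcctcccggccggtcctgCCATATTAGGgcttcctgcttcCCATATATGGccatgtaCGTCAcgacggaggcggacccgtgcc
DUSP1: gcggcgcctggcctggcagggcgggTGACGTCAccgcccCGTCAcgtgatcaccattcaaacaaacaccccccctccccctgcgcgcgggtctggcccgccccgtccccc

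Over the whole 300-base window, 250 bases before to 50 after the start, 9 of the 10 genes had an entry. TGACG occurred in 8 of the 9, all but ATF3, and in 28.42% of the 27305 genes with a window. This motif was chosen after values or sequences had been seen, so no enrichment can be read from that contrast. TGACG began 64 bases before the start in FOS, 60 in FOSB and 123 in JUN. A CArG box was found in 2 of the 9, EGR1 and EGR2, against 1.6% of genes, and EGR1 had a pair of them, 105 and 83 bases upstream. The full palindrome TGACGTCA, which contains TGACG, was found in DUSP1 alone, 125 bases upstream, against 2.25% of genes. The AP-1 site, searched only as TGACTCA or TGAGTCA, was in 0 of the 9 and in 6.05% of genes. The EGR site GCGNGGGCG was in EGR1 and EGR2 and in 11.17% of genes. Both strands were searched for these motifs only, so sites farther from the start or with other letters were not counted. A match of letters is a description of the window only.

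The depletions were visible on the arrays. TET2 stood at 54.4% of its siNTC level in siTET2 (log2 change of -0.88 ± 0.0954, SE, adjusted p = 9.74e-06 by limma), TET3 at 47.4% in siTET3 and TET1 at 62.3% in siTET1. TET1 was also at 81.4% in siTET2 and at 133.7% in siTET3, and TET2 at 72.4% in siTET3. Across genes, the Pearson correlation was 0.998 to 0.999 within a group, 0.995 to 0.998 between depletions and 0.989 to 0.991 between a depletion and siNTC. Of 12 markers of embryonic carcinoma cells, 10 were measured, among them SOX2 and LIN28A, and all 10 were above background on every array. Their mean log2 level was 11.10 to 11.11 in siTET2 and 11.22 to 11.23 in siNTC. In siTET2 against siNTC, 2 of the 10 passed the test as higher and 6 as lower, where 14.4% of all genes were higher and 21.8% lower. None of 6 blood cell markers was above background on any array, and the marker lists for fibroblasts, yolk sac endoderm, trophoblast, neural cells and mesoderm had 3 to 4 members above it on all arrays. The part of these shifts in the results below was not tested. RNA came from whole cultures, so fewer expressing cells and less RNA per cell cannot be told apart.

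FOS had the largest differences of the 9 genes in the comparisons of siTET2 with each other group. Its log2 level was 8.74 and 8.60 on the siTET2 arrays, 7.24 and 7.31 in siTET3, 6.98 and 6.94 in siTET1 and 6.87 and 6.91 in siNTC, so both siTET2 arrays lay above the other 6. FOS was 3.43-fold higher in siTET2 than in siNTC (log2 1.78 ± 0.0760, SE, 95% interval 1.61 to 1.94, adjusted p = 3.33e-09 by limma), 3.28-fold higher than in siTET1 (log2 1.71, adjusted p = 9.75e-08) and 2.63-fold higher than in siTET3 (log2 1.39, adjusted p = 5.99e-07). Among all 18417 genes this was the largest increase of siTET2 over siTET1 and over siTET3, and it ranked 18 among the increases of siTET2 over siNTC. FOS was also 1.31-fold higher in siTET3 than in siNTC (adjusted p = 0.00136). In siTET1 it did not pass the test against siNTC, at a log2 difference of 0.07 with a 95% interval of -0.10 to 0.23.

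FOSB, the paralogue of FOS, had log2 levels of 6.06 and 6.13 in siTET2, 5.41 and 5.54 in siTET3, 5.23 and 5.28 in siTET1 and 4.91 and 5.07 in siNTC. The siTET2 arrays were again the highest, and both siNTC arrays were below background, which was set at 5.21 from olfactory receptor genes. FOSB was therefore at least 1.85-fold higher in siTET2 than in siNTC (adjusted p = 2.13e-06 by limma), a bound that takes the background level for siNTC. It was 1.79-fold higher than in siTET1 (log2 0.84 ± 0.101, SE, adjusted p = 4.51e-04) and 1.54-fold higher than in siTET3 (log2 0.62, adjusted p = 0.00156). Both siTET1 arrays, at 5.23 and 5.28, lay just above background. The siTET3 arrays were at least 1.20-fold above siNTC (adjusted p = 0.00195), while siTET1 missed the threshold (adjusted p = 0.0571) and passed it under 7 of 15 alternatives, among them quantile normalization (0.0444).

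JUN, the main partner of FOS in AP-1, had log2 levels of 7.91 and 8.02 in siTET2, 7.59 and 7.69 in siTET3, 7.14 and 7.31 in siTET1 and 6.73 and 6.98 in siNTC. The 4 groups did not overlap, and they stood in the order siTET2, siTET3, siTET1, siNTC. JUN was 2.16-fold higher in siTET2 than in siNTC (log2 1.11 ± 0.0971, SE, adjusted p = 1.48e-06 by limma) and 1.67-fold higher than in siTET1 (adjusted p = 8.47e-04). It differed from siNTC in the other depletions too, 1.72-fold in siTET3 (adjusted p = 3.14e-05) and 1.29-fold in siTET1 (adjusted p = 0.00903). The step of siTET2 above siTET3 was 1.25-fold (log2 0.32, 95% interval 0.11 to 0.54, adjusted p = 0.0467) and was lost under 8 of 15 alternatives, among them quantile normalization (0.0694) and leaving out siTET2 replicate 1 (0.123), siTET2 replicate 2 (0.311) or siTET3 replicate 1 (0.2). The call of siTET1 over siNTC was lost without siTET1 replicate 2 (0.1) or siNTC replicate 1 (0.102).

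JUNB, which competes with JUN for dimer partners, had log2 levels of 6.21 and 6.16 in siTET2, 6.27 and 6.35 in siTET3, 5.94 and 6.13 in siTET1 and 5.94 and 5.91 in siNTC. It was highest in siTET3, which was 1.31-fold above siNTC (log2 0.39, adjusted p = 0.00707 by limma). The difference of siTET2 from siNTC was 0.27 on the log2 scale (95% interval 0.05 to 0.48, adjusted p = 0.0522), just outside the threshold, and 7 other settings put it inside. No step between neighbouring groups in the order of JUNB passed the test. ATF3 had log2 levels of 5.80 and 5.66 in siTET2, 5.83 and 5.74 in siTET3, 5.80 and 5.56 in siTET1 and 5.65 and 5.60 in siNTC. Its difference between siTET2 and siNTC was 0.10 with a 95% interval of -0.13 to 0.34 (adjusted p = 0.516), so a change above 1.26-fold in either direction lay outside that interval.

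**Figure D1:**
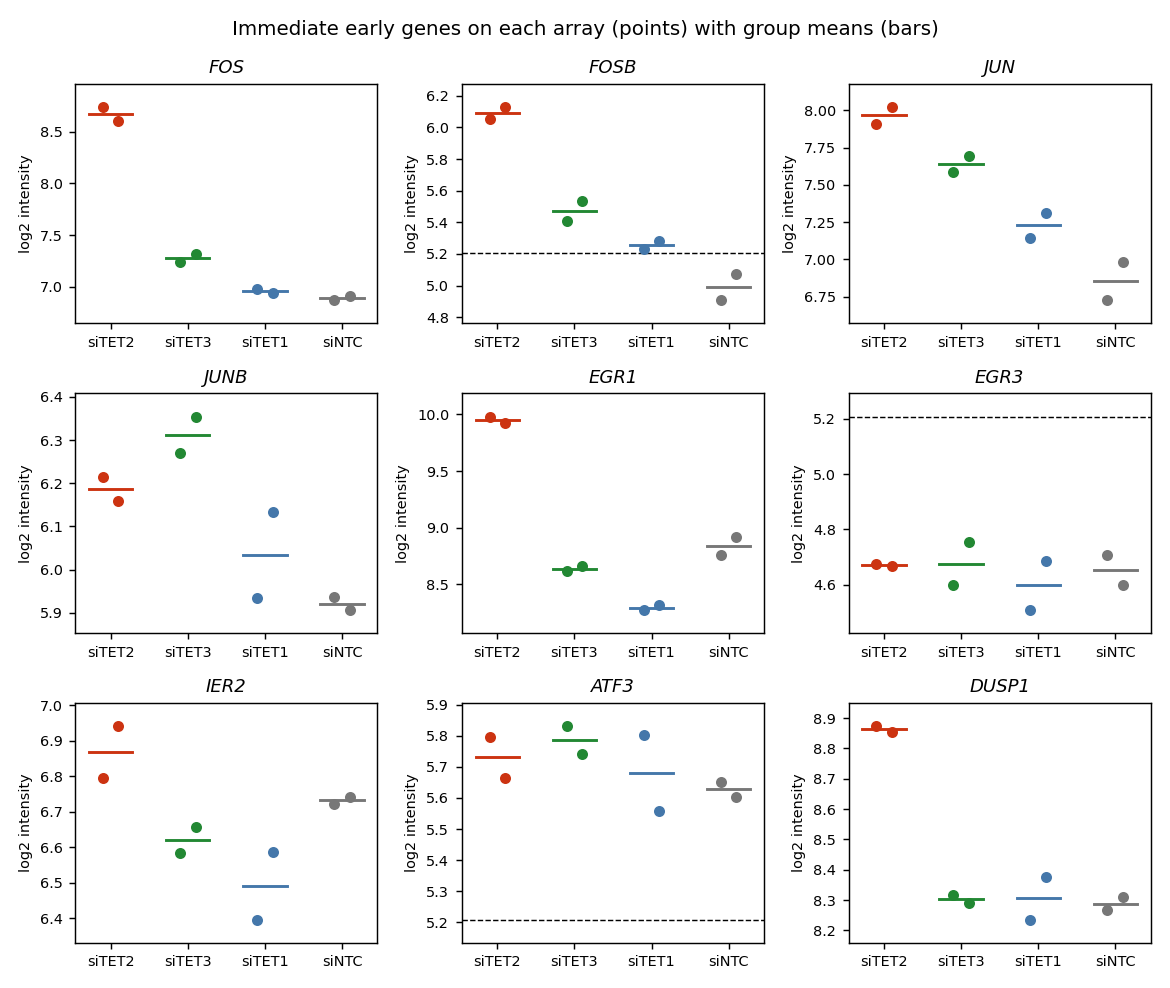
Log2 intensity (vertical axes, each with its own range) of the 9 measured immediate early genes on each of the 8 arrays. Points are arrays, bars are the means of 2 arrays, and the dashed line, where in range, is the background at 5.21. FOS, FOSB, JUN, EGR1, IER2 and DUSP1 have both siTET2 points above all others, and EGR3 is below background throughout. The share of all genes with such a separation was not counted, and IER2 passed the test against siTET1 only.

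EGR1 had log2 levels of 9.98 and 9.92 in siTET2, 8.61 and 8.66 in siTET3, 8.27 and 8.32 in siTET1 and 8.76 and 8.91 in siNTC. The groups did not overlap, and EGR1 differed from the AP-1 genes in that siNTC stood second. It was 2.17-fold higher in siTET2 than in siNTC (log2 1.11 ± 0.0599, SE, adjusted p = 2.31e-08 by limma), and it was lower than siNTC in siTET1, at 0.687 times its level (log2 -0.54, adjusted p = 1.28e-05). In siTET3 it was at 0.870 times the siNTC level (log2 -0.20, adjusted p = 0.0184), a call that was lost with quantile normalization (0.233), median centring (0.0593), the 4 arrays alone (0.0635) or no intensity trend (0.0512), and without siTET3 replicate 1 (0.0802) or siNTC replicate 2 (0.164). Set directly against the other depletions, siTET2 was 3.15-fold above siTET1 (log2 1.66, adjusted p = 2.31e-08) and 2.49-fold above siTET3 (log2 1.32, adjusted p = 1.31e-07). In both comparisons EGR1 ranked 2 among the increases of all genes, next to FOS. EGR3 was below background on all 8 arrays, between 4.51 and 4.75, and no fold is given for it.

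DUSP1 had log2 levels of 8.87 and 8.85 in siTET2, 8.32 and 8.29 in siTET3, 8.24 and 8.38 in siTET1 and 8.27 and 8.31 in siNTC. The 3 groups other than siTET2 overlapped, and siTET2 stood apart from all of them by a similar step. The increase was 1.49-fold over siNTC (log2 0.57 ± 0.0620, SE, adjusted p = 9.21e-06 by limma), 1.47-fold over siTET1 (log2 0.56, adjusted p = 2.44e-04) and 1.47-fold over siTET3 (log2 0.56, adjusted p = 1.01e-04). Against siNTC, DUSP1 differed by 0.02 in siTET3 and 0.02 in siTET1 on the log2 scale, with 95% intervals of -0.12 to 0.15 in both.

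IER2 had log2 levels of 6.79 and 6.94 in siTET2, 6.58 and 6.66 in siTET3, 6.40 and 6.59 in siTET1 and 6.72 and 6.74 in siNTC. Both siTET2 arrays were the highest, by a small margin over siNTC. Of the 6 comparisons, it passed the test only between siTET2 and siTET1 (1.30-fold, log2 0.38, adjusted p = 0.0348 by limma). That call was lost without an intensity trend (0.0775) and when any of the 4 arrays compared was left out, at 0.28 and 0.0658 without siTET1 replicate 1 or 2 and 0.116 and 0.297 without siTET2 replicate 1 or 2. Against siNTC, IER2 in siTET2 differed by 0.14 (95% interval -0.07 to 0.34, adjusted p = 0.311).

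**Figure D2:**
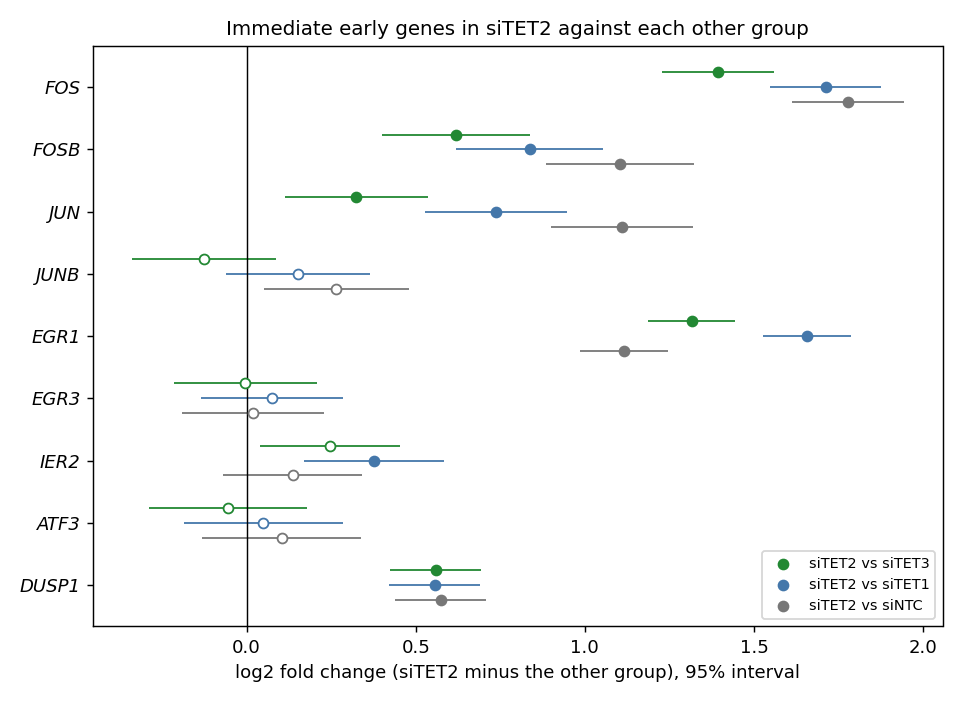
Log2 fold change (horizontal axis) of the 9 measured genes in siTET2 against siTET3, siTET1 and siNTC. Points are estimates from limma, lines are 95% intervals, and filled points passed at an adjusted p under 0.05. The intervals of FOS, FOSB, JUN, EGR1 and DUSP1 are to the right of 0 in each comparison, and those of ATF3 and EGR3 cross it.

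Counted over the 9 measured genes, 5 were higher in siTET2 than in siNTC, 0 were lower and 4 did not pass (limma, adjusted p under 0.05), while 14.4% of all genes were higher and 21.8% lower. Because the members were chosen with earlier results of these data known, such contrasts describe the data and are not independent support. The median log2 change of the 9 genes was 0.57, against -0.04 over all genes. Against siTET1, 6 of 9 were higher in siTET2 and 0 lower, where 2.33% of all genes were higher and 4.13% lower, with a median of 0.56 for the members against -0.02. That balance over all genes depends on the scaling, as 36.1% of the 1189 calls were higher here, 54.1% with median centring and 53.9% with quantile normalization, and 248 genes were called without siTET2 replicate 1. Against siTET3, 5 of 9 were higher and 0 lower, where 7.24% of all genes were higher and 4.94% lower, with a median of 0.32 against -0.01, and 59.4% of the calls over all genes were higher (45.1% with median centring). For counts at an unadjusted p under 0.05, no share over all genes is given, here or below. At that threshold, 6 members were higher and 0 lower in siTET2 in each of the 3 comparisons, which share the siTET2 arrays. Of the 16 calls of members in them, 14 were kept under the 15 alternatives that refit the data, and the exceptions were JUN against siTET3 and IER2 against siTET1. With a 1.5-fold minimum as well, 11 were kept, since DUSP1 was just under it in each of the 3 comparisons.

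**Figure D3:**
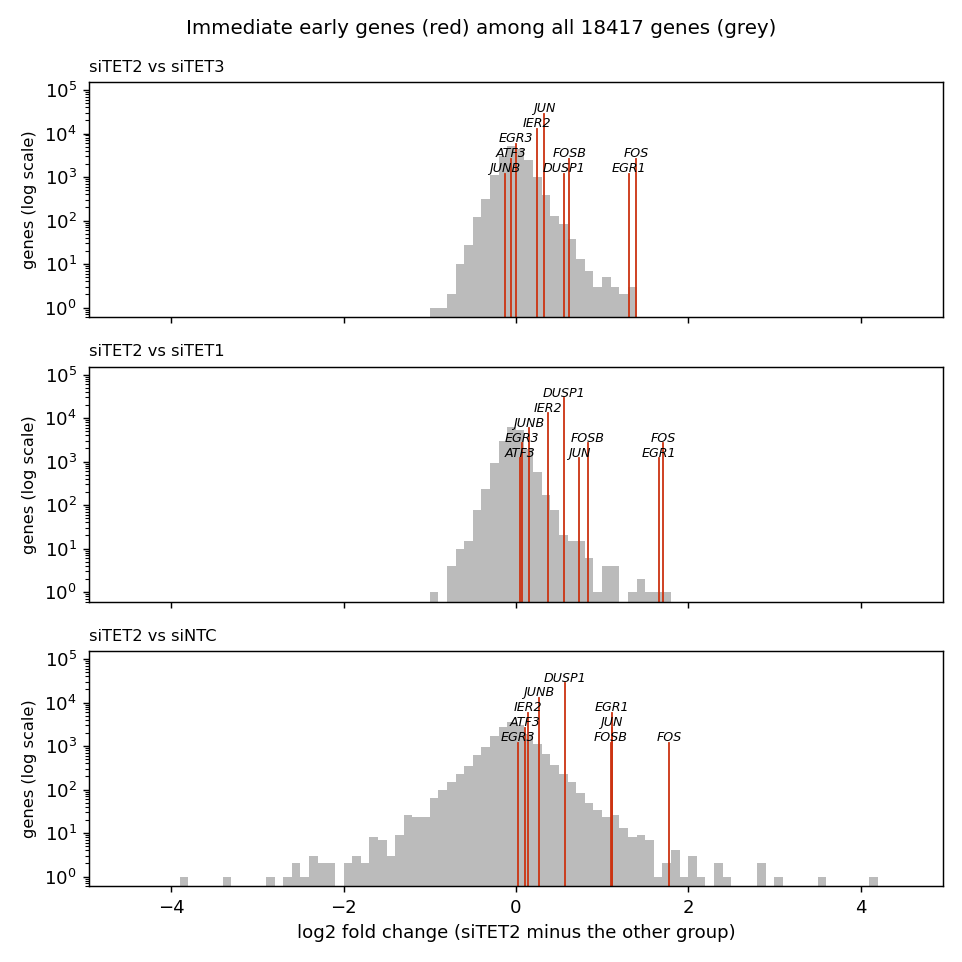
Histograms of the log2 fold change of all 18417 genes (horizontal axis) in siTET2 against siTET3, siTET1 and siNTC, with the number of genes on a log axis and the 9 measured immediate early genes as red lines (line heights only separate the names). FOS and EGR1 are at the right end against siTET3 and siTET1, and within a wider spread against siNTC.

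In siTET3, 4 of the 9 were higher than in siNTC (FOS, FOSB, JUN and JUNB) and 1 was lower (EGR1), where 13.8% of all genes were higher and 22.3% lower. In siTET1, 1 was higher (JUN) and 1 lower (EGR1), where 15.6% of all genes were higher and 18.7% lower. The comparisons with siNTC share its 2 arrays. Between siTET3 and siTET1, a comparison added after the values had been seen, FOS (log2 0.32, adjusted p = 0.0151 by limma), JUN (0.41, 0.0139) and EGR1 (0.34, 0.00235) were higher in siTET3, so 3 of 9 were higher and 0 lower (4 and 0 at an unadjusted p under 0.05) where 3.82% of all genes were higher and 9.94% lower. The call of FOS there was lost without siTET1 replicate 1 (0.064) or 2 (0.11), and that of JUN without siTET1 replicate 1 (0.128) or without an intensity trend (0.0505).

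Further immediate early genes were read from a list of 33, of which 32 were measured and 28 were above background on every array of a group. In siTET2, 12 were higher than in siNTC, 5 were lower and 15 did not pass, against 14.4% higher and 21.8% lower over all genes, with a median log2 change of 0.15. FOSL2, another FOS relative, had a mean log2 level of 6.50 in siTET2 and 5.77 in siNTC (change 0.72 ± 0.110, SE, adjusted p = 1.70e-04 by limma), and GADD45B, a stress sensor, was higher by 0.49 (adjusted p = 0.00251). CCN2, a secreted matrix protein, was lower (log2 -0.51, adjusted p = 2.86e-05), as was SRF, which is itself an immediate early gene (-0.79, adjusted p = 5.02e-08). Against siTET1, 4 of the 32 were higher in siTET2 (FOSL2, KLF10, CCN2 and GADD45B) and 0 lower, and against siTET3 4 were higher (NR4A1, NR4A2, KLF4 and BTG1) and 0 lower. Over all genes, 2.33% were higher and 4.13% lower against siTET1, and 7.24% higher and 4.94% lower against siTET3. At an unadjusted p under 0.05 the counts of the list were 13 higher and 0 lower against siTET1, and 11 higher and 0 lower against siTET3. The share over all genes at that threshold is not given. CCN2 was thus lower in siTET2 than in siNTC and higher than in siTET1, by 0.29 (adjusted p = 0.0165).

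Of 12 measured genes for SRF, its ternary complex partners and CREB, 2 were higher in siTET2 than in siNTC, 3 lower and 7 did not pass, shares near the 14.4% higher and 21.8% lower over all genes. SRF averaged 9.48 in siTET2 and 10.26 in siNTC, ELK1, a ternary complex factor, was lower (log2 -0.53, adjusted p = 3.33e-05 by limma), CREB1 was lower (-0.48, adjusted p = 3.11e-07) and ELK3 was higher (0.32, adjusted p = 0.00193). SRF, ELK1 and CREB1 were also lower than in siNTC in siTET1 (-0.74, -0.54 and -0.47) and in siTET3 (-0.92, -0.71 and -0.41). ELK3 was also higher there, by 0.40 and 0.24. Between siTET2 and siTET1, 0 of the 12 passed in either direction (3 higher and 0 lower at an unadjusted p under 0.05), and SRF differed by -0.04 (adjusted p = 0.743). Over all genes, 2.33% were higher and 4.13% lower in that comparison. Among 14 MAP kinases and MAP kinase kinases, 5 were higher in siTET2 than in siNTC and 4 lower, led by MAP2K5 (log2 -1.14, adjusted p = 2.13e-07), the kinase of the ERK5 branch, and by MAPK9 (0.75, adjusted p = 3.28e-08) and MAPK10 (0.63, adjusted p = 1.38e-06), which encode JNK kinases that phosphorylate JUN. These shifts were not particular to siTET2. Against siNTC, MAP2K5, MAPK9 and MAPK10 stood at -0.92, 0.87 and 0.57 in siTET1 and at -1.03, 0.50 and 0.24 in siTET3. A link of these kinases to the level of JUN was not tested.

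Genes that limit the response were read against the same shares over all genes, 14.4% higher and 21.8% lower. Of 9 MAP kinase phosphatases other than DUSP1, 2 were higher in siTET2 than in siNTC, 3 lower and 4 did not pass. DUSP6, an ERK phosphatase, averaged 6.35 in siTET2 and 8.15 in siNTC (log2 -1.80 ± 0.0891, SE, adjusted p = 1.18e-08 by limma), and DUSP10, which acts on JNK and p38, averaged 7.53 in siTET2 and 6.42 in siNTC (1.11, adjusted p = 4.16e-06). DUSP6 was lower than in siNTC in siTET3 (-1.95) and siTET1 (-2.31) as well, and higher in siTET2 than in siTET1 by 0.51 (adjusted p = 0.00549). DUSP10 was higher than in siNTC in siTET3 (1.15) and siTET1 (0.83) as well. NAB2, a corepressor that binds EGR proteins, was lower in siTET2 than in siNTC (-0.48, adjusted p = 0.0147), and NAB1 was below background in both groups. NAB2 was also lower than in siNTC in siTET3 (-0.61) and siTET1 (-0.64). Among 13 measured AP-1 and dimer partner genes outside the 10, 2 were higher in siTET2 than in siNTC and 3 lower, the lower ones being ATF2 (-0.52, adjusted p = 1.21e-07), ATF7 (-0.43) and JDP2 (-0.32). Against siNTC, ATF2, ATF7 and JDP2 also stood at -0.60, -0.42 and -0.46 in siTET1 and at -0.35, -0.44 and -0.29 in siTET3. In siTET3, JDP2 did not pass the test. Of 14 genes for decay and stability of AU-rich mRNAs, the class to which FOS RNA belongs, 3 were higher and 4 lower, and CNOT7, a deadenylase, was lower (-0.54, adjusted p = 2.82e-07).

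**Figure D4:**
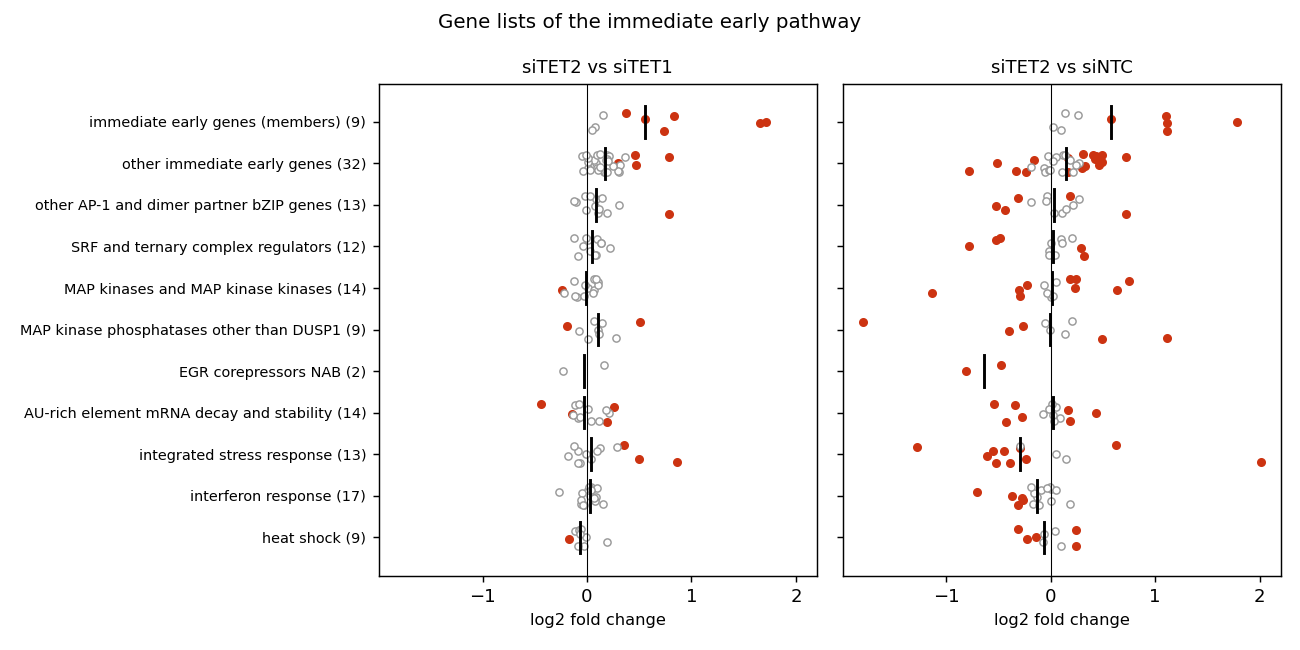
Log2 fold change (horizontal axis) of the genes of each list in siTET2 against siTET1 (left) and siNTC (right), with the number of measured genes in brackets. Each point is a gene, red points passed at an adjusted p under 0.05 by limma, and black bars are medians. Against siTET1, the 9 immediate early genes have a median of 0.56 and the lists of regulators have few red points.

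Stress programmes were read from 3 lists. For the integrated stress response, 2 of 13 genes were higher in siTET2 than in siNTC and 8 lower, against 14.4% higher and 21.8% lower over all genes, with a median log2 change of -0.29. DDIT4, an mTOR inhibitor, averaged 9.06 in siTET2 and 7.05 in siNTC (2.01, adjusted p = 2.00e-09 by limma), PPP1R15A, a phosphatase subunit, was higher by 0.63 (adjusted p = 4.16e-05), and CHAC1 (-1.28) and ASNS (-0.61) were lower. Against siNTC, DDIT4, CHAC1 and ASNS also stood at 1.15, -1.56 and -0.42 in siTET1 and at 1.07, -1.28 and -0.39 in siTET3. Against siTET1, DDIT4, PPP1R15A and VLDLR were higher in siTET2 and 0 of the 13 lower, with 1 lower at an unadjusted p under 0.05. Over all genes, 2.33% were higher and 4.13% lower in siTET2 than in siTET1. For the interferon response, 0 of 17 genes were higher in siTET2 than in siNTC and 5 lower (0 and 6 at an unadjusted p under 0.05), and 4 of the 17 were above background on every array of a group. Of the lower genes, IFIT1, IFIT3 and IFI44L were below background on both siTET2 arrays. In siTET1 and in siTET3 alike, 0 of the 17 were higher than in siNTC and 4 lower. Over all genes, 15.6% were higher and 18.7% lower in siTET1, and 13.8% higher and 22.3% lower in siTET3. For heat shock, 2 of 9 were higher in siTET2 than in siNTC and 3 lower.

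Over the 8 arrays, the genes whose levels ran most like FOS among 12931 other genes above background on both arrays of at least 1 group were SSTR1 (Pearson r = 0.984), VEGFA (0.982), PTPRB (0.981), STC2 (0.978) and SH2B2 (0.970). SSTR1 encodes a somatostatin receptor, VEGFA an angiogenic growth factor, PTPRB a receptor phosphatase and STC2 a secreted glycoprotein. VEGFA, for example, had mean log2 levels of 8.36 in siTET2, 7.69 in siTET3, 7.48 in siTET1 and 7.30 in siNTC. The genes most like EGR1 were PDK1 (0.981), a mitochondrial kinase, KMT2D (0.971), SNORD15A (0.964), FGFRL1 (0.957) and STC2 (0.957). Among the members, DUSP1 (0.968), FOSB (0.956) and EGR1 (0.928) ran most like FOS, JUN was at 0.840, IER2 at 0.678, JUNB at 0.442 and ATF3 at 0.283. The arrays fall into 4 groups of 2, so these values describe the order of the groups and carry no test.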

How the data were processed

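RNA of NCCIT cells was measured on Affymetrix Human Gene 1.0 ST arrays from 250 ng of total RNA. The deposited table holds log2 intensities that the authors normalized between arrays, per the labels, with Partek as the tool named in the submitters' processing notes. The Partek version and how it corrected background and summarized probes were not given in the sources used here. Array medians were 6.22 to 6.27. Of 33297 probe groups, 19460 (58.4%) had 1 gene symbol, 1754 several and 12083 none. Only those with 1 symbol were used, and of several for a gene (769 genes) the one with the highest mean, which left 18417 genes. Background was taken from 341 olfactory receptor genes, as the value that 95% of their means stayed below, and 12749 genes (69.2%) were above it by their mean over all arrays. No filter preceded the tests.

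Groups came from the labels. A model with 4 group means was fitted to all 8 arrays in limma 3.58.1 (lmFit, eBayes with an intensity trend, R 4.3.3), with Benjamini-Hochberg adjustment over 18417 genes and calls at an adjusted p under 0.05. A fold against a group below background is a bound, with background in place of lower values. The number of arrays limits the precision. On simulated data for siTET2 against siNTC (18417 genes, 50 genes of each size), 66% of 1.25-fold, 96% of 1.5-fold and 100% of 2-fold changes were recovered, with 15 false calls. The simulation used independent noise and changed genes in siTET2 alone, far fewer than the 6675 called in the data. These rates therefore need not hold for the real comparison. Alternatives covered scaling, the arrays fitted, the trend, dim genes, several probe groups of a gene, the replicate number, each array left out and a 1.5-fold minimum. Promoter windows and gene positions came from RefSeq on GRCh38.p14, where 9 of 10 members had a window.

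The members and lists were chosen with earlier results of these data known. The text names all members, the TET genes, up to 4 called genes with the largest change between siTET2 and siNTC in a list, and the 5 genes most like FOS and EGR1. Other list genes, the TGACG motif and the comparison of siTET3 with siTET1 were chosen after values or sequences were seen. A gene of several lists counts in each, and older symbols were updated.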

Additional observations from a re-analysis of the deposited data

Results flagged for a closer look

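Several immediate early genes responded differently to different depletions, by the test of the difference between the depletions itself (limma, adjusted p under 0.05). Between siTET2 and siTET1 the log2 difference was 1.71 for FOS, 0.84 for FOSB, 0.74 for JUN, 1.66 for EGR1, 0.38 for IER2 and 0.56 for DUSP1. Between siTET2 and siTET3 it was 1.39 for FOS, 0.62 for FOSB, 0.32 for JUN, 1.32 for EGR1 and 0.56 for DUSP1. Between siTET3 and siTET1 it was 0.32 for FOS, 0.41 for JUN and 0.34 for EGR1. EGR1 moved in opposite directions against siNTC, at 1.11 in siTET2 and -0.54 in siTET1. With 2 arrays a group, no array could be examined as an outlier of its group.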

How the results depend on the processing

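Of 804 values of single members under 15 alternatives, 740 kept their direction and their side of the threshold, 25 lost the call, 18 gained one and 21 changed sign, the last all in EGR3, ATF3 and DUSP1 where they had not passed. EGR3 between siTET2 and siTET3 was 0.0577 with quantile normalization, and DUSP1 between siTET3 and siTET1 was 0.0823 with quantile normalization and 0.0609 with median centring.

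Requiring a 1.5-fold change left 1135 genes for siTET2 against siNTC, 67 for siTET2 against siTET1, 95 for siTET2 against siTET3, 944 for siTET1 against siNTC, 1089 for siTET3 against siNTC and 93 for siTET3 against siTET1. It left 4 members for siTET2 against siNTC, 4 for siTET2 against siTET1 and 3 for siTET2 against siTET3, without DUSP1 in any of them, and 0 for siTET1 against siNTC, 1 for siTET3 against siNTC and 0 for siTET3 against siTET1. Without an intensity trend, 223 genes passed for siTET2 against siTET1, 1018 for siTET2 against siTET3 and 1287 for siTET3 against siTET1, against 1189, 2244 and 2534 with it. Fitting the 4 arrays alone gave 2370 for siTET2 against siTET1. Quantile normalization gave 4 members for siTET1 against siNTC. The causes were not tested.

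Leaving out each array in turn gave 248 (without siTET2 replicate 1) to 1615 genes for siTET2 against siTET1, 817 (without siTET2 replicate 2) to 2836 for siTET2 against siTET3 and 1008 (without siTET1 replicate 2) to 3242 for siTET3 against siTET1. Members called ranged from 1 (without siNTC replicate 1) to 3 for siTET1 against siNTC, and from 1 (without siTET1 replicate 1) to 3 for siTET3 against siTET1. EGR3, below background on every array and so without a measured direction, ranged from -0.0357 to 0.0746 for siTET2 against siNTC, -0.0129 to 0.164 for siTET2 against siTET1, -0.0805 to 0.0736 for siTET2 against siTET3, -0.144 to 0.0323 for siTET1 against siNTC, -0.0541 to 0.10 for siTET3 against siNTC and -0.0094 to 0.167 for siTET3 against siTET1. ATF3 ranged from -0.0735 to 0.173 for siTET2 against siTET1, -0.122 to 0.0112 for siTET2 against siTET3, -0.0698 to 0.177 for siTET1 against siNTC and -0.018 to 0.229 for siTET3 against siTET1. DUSP1 ranged from -0.0525 to 0.0894 for siTET1 against siNTC, -0.0063 to 0.038 for siTET3 against siNTC and -0.0736 to 0.0683 for siTET3 against siTET1.

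The deviations of samples with the same replicate number had correlations between -0.04 and 0.24, the highest for siTET3 with siTET1. With so few arrays in a group, these values cannot decide whether the numbers pair the samples, and the labels do not say. With the replicate number as a block, 6727 genes passed for siTET2 against siNTC, 1219 for siTET2 against siTET1, 2287 for siTET2 against siTET3, 6402 for siTET1 against siNTC, 6713 for siTET3 against siNTC and 2592 for siTET3 against siTET1, and 5, 6, 5, 3, 5 and 3 members. Scaling moved the share of higher calls by over 10 points, as the share was 39.9% for siTET2 against siNTC (50.4% with quantile normalization), 36.1% for siTET2 against siTET1 (54.1% with median centring, 53.9% with quantile), 59.4% for siTET2 against siTET3 (45.1% with median centring), 38.1% for siTET3 against siNTC (48.6% with median centring, 50.5% with quantile) and 27.8% for siTET3 against siTET1 (55.1% and 46.6%). Signal over background limited EGR3 on all arrays and FOSB in siNTC, and FOSB in siTET1 lay just above background.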
